A study of Drosophila melanogaster with 12 samples.

Results

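The regions described here are long stretches of the Drosophila melanogaster genome that hold no nucleosome call in one of the cell types studied and lie to at least 50% in 1 stretch without calls in the other. A long stretch is the sequence between neighbouring nucleosomes whose starts lie more than 500 bp apart. It was counted from the base after the first nucleosome to the base before the next, so the shortest possible stretch is 354 bp. A stretch of the neural progenitor map was taken as a member when at least 50% of its length lay inside 1 long stretch of the glia map. There were 2138 members among 2654 long stretches in the progenitor map, and 522113 distances between neighbouring nucleosomes in all. Long stretches were 0.508% of all neighbour distances in the progenitor map and 0.495% in the glia map. The members were thus selected on the nucleosome positions of both maps, and their number, lengths and overlap are descriptions with no test.

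The series compares nuclei of early and late glial cells, captured from whole embryos by a FLAG-tagged protein of the nuclear envelope, and 2 of its 12 samples, the MNase-seq ones, are used here. Early glial cells came from embryos of 5 to 7 h after egg laying that carried gcm-Gal4 with UAS-mCDGFP over cyo, and in addition UAS-3xFLAG-blrp-mCherry-RanGap, and they are called GNP below (Gcm-expressing neural progenitor). Late glial cells, called glia, came from embryos of 12 to 14 h that carried repo-Gal4 with UAS-3xFLAG-blrp-mCherry-RanGap over Tm3B. Both lines thus carry the same tagged protein, driven by gcm in the first and by repo in the second. The gcm driver is also active in blood cell precursors, and cell type and embryo age cannot be told apart. The lists hold positions only, so no marker of either cell type could be checked. Nucleosomes numbered 522119 in GNP and 510664 in glia. There is 1 library per cell type, the number of reads behind each is unknown, and no test between them was possible. Intervals given below are 95% intervals and cover counting error only.

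Nucleosomes wrap DNA around histones and shield it from micrococcal nuclease (MNase), so sequenced MNase fragments mark their positions. In active chromatin an open promoter or enhancer is usually free of nucleosomes over a length close to 1 nucleosome. Much longer stretches without calls can be sequence free of nucleosomes, repeated sequence, or undetermined bases of the assembly. The authors kept only uniquely mapped reads, and reads from repeated sequence cannot be placed uniquely. These cases cannot be told apart from the lists. In the fly, mobile elements and tandem gene arrays are major kinds of repeated sequence. They are dense in the heterochromatin around the centromeres and on the small chromosome 4. The sequence content of the stretches was not examined, since no genome of the dm3 build was used here.

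The share of long GNP stretches that were members differed with their length. Of all long GNP stretches, 80.6% were members (95% interval 79.0% to 82.0%). Among stretches of up to 400 bp the share was 28.1% (23.5% to 33.1%), or 94 of 335. It was 54.3% (49.2% to 59.2%) from 400 to 500 bp and 85.0% (80.6% to 88.5%) from 500 to 700 bp. The share reached 91.3% from 700 bp to 1 kb and 96.2% from 1 to 2 kb. From 5 to 10 kb it was 98.8% (97.3% to 99.5%), or 428 of 433, and over 10 kb 55 of 57 were members. Nearly every stretch over 1 kb was therefore a member, whereas most of the shortest ones were not. A member can still hold glia calls. No glia nucleosome centre lay inside 90.4% of the members up to 400 bp, 60.0% of those from 1 to 2 kb and 43.6% of those over 10 kb. The rise of the share with length is in part set by the rule. The glia stretch must itself reach 354 bp. A GNP stretch near that length has no long glia stretch beside it when the glia gap is slightly shorter or broken by 1 call. How much of the rise this makes up was not tested. The 516 GNP stretches that were no members had a median length of 407 bp (398 to 415), and 465 of them overlapped no long glia stretch at all. Only 30 of them exceeded 1 kb. Seen from the other map, 2206 of 2529 long glia stretches or 87.2% had at least 50% of their length in a long GNP stretch.

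**Figure D1:**
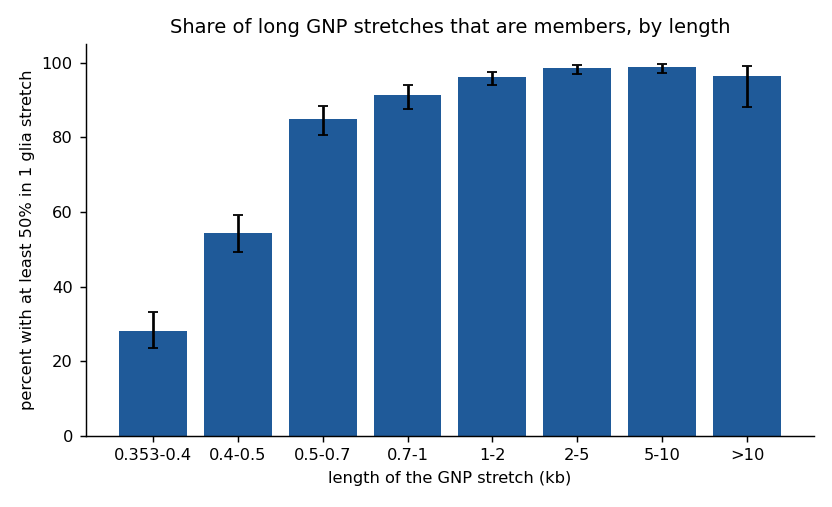
Percent of long GNP stretches of which at least 50% lies in 1 long glia stretch, by length of the GNP stretch in kb. Bars are shares, with Wilson 95% intervals. The share rises from 28.1% in the shortest class to 98.8% from 5 to 10 kb.

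The values on either side of the limits show where the rule cut. Nucleosome starts lay exactly 500 bp apart at 5 places in GNP, just outside the limit, and 501 bp apart at 7 places, just inside it. The shortest members were 355 bp long, on arms 2L (627456 to 627810), 3L (24198728 to 24199082) and 3R (19510453 to 19510807). Their glia partners measured 370, 525 and 453 bp. At the overlap limit, a stretch of 1203 bp on 2R entered with 50.1% of its length shared. A stretch of 6414 bp on 2L (22752897 to 22759310) stayed out with 49.7%, and 2 glia nucleosome centres lay inside it. The longest stretches that were no members lay on X and measured 17.5 kb and 16.6 kb. Each held 3 glia nucleosome centres that divided it into parts of less than 50%.

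Members held 6.49 Mb, which is 5.39% of the 120 Mb spanned by the calls and 95.2% of the sequence in all long GNP stretches. The median length was 1.36 kb (1.27 to 1.46), and the quartiles were 662 and 4645 bp. The lengths were very uneven. The 853 members over 2 kb were 39.9% of the members and held 82.5% of their sequence. The 55 members over 10 kb held 1.10 Mb.

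Lengths were often close between the maps, and the rule accounts for an unknown part of this. It sets how much of the GNP stretch must be covered, so stretches with a much shorter or broken glia gap were already left out. It sets no upper limit on the length of the partner. How close the lengths would be without the rule was not tested. The signed difference, partner minus member, had a median of 1 bp. Longer and shorter partners cancel in this value, so it does not measure closeness. The partner was longer for 1079 members, shorter for 1044 and equal for 15. The lengths differed by at most 20 bp for 22.1% of the members, and by at most 100 bp for 1105 members, or 51.7%. Among the 853 members over 2 kb, 626 or 73.4% had a partner within 5% of their own length. The 2138 members had 2043 different glia partners, because 81 partners spanned more than 1 member.

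**Figure D2:**
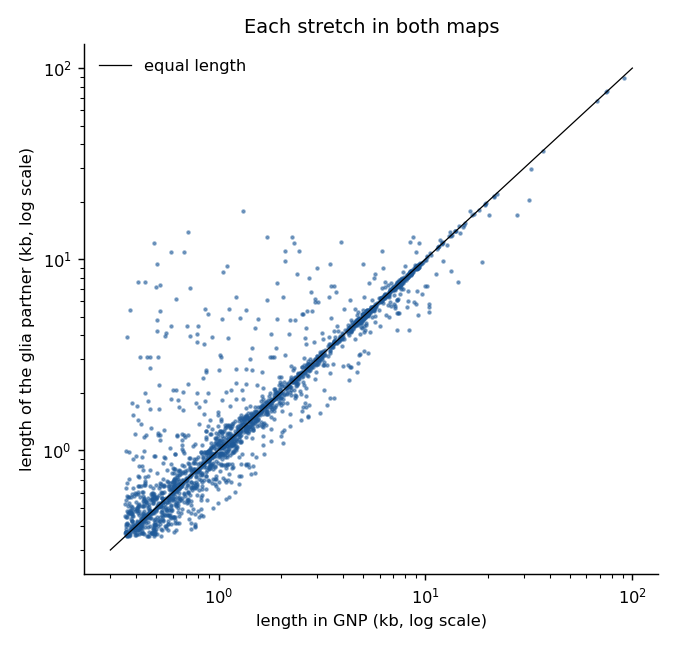
Length of each of the 2138 members in GNP (horizontal axis, kb, log scale) against the length of its glia partner (vertical axis, kb, log scale). The line marks equal length. Most points over 2 kb lie close to it. Points far above it are members whose glia partner runs on across a GNP nucleosome.

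The edges of a stretch are set by the nucleosomes called on either side. Over 4276 edges, the GNP and glia edges lay a median of 49 bp apart (42 to 55). They were within 20 bp for 1831 edges or 42.8% (41.3% to 44.3%), and at the same position for 140 edges. At 332 edges, or 7.76%, they were more than 500 bp apart. The glia edge lay farther out at 2008 edges and farther in at 2128, which are similar numbers. Both edges were within 20 bp for 405 members, and no member had identical positions at both edges. The longest member with both edges within 20 bp ran from 15653046 to 15727592 on 2L. It measured 74547 bp in GNP and 74562 bp in glia.

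Few calls of the other map fell inside. No glia nucleosome centre lay inside 1322 members (61.8%), 1 lay inside 686 and 2 lay inside 112. The most in any member was 4. Together these are 966 glia centres, or 1.49 per 10 kb of member sequence, where the whole span had 42.4 per 10 kb. The reverse count was similar, with 1.45 GNP centres per 10 kb of glia partner. The low numbers follow from the rule, which asks for an empty stretch in each map, and are given as a description.

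The 10 longest members measured 21.4 to 91.3 kb, and 5 of them were on arms 2L or 2R, 4 on X and 1 on 3L. The longest lay on 2L from 21448804 to 21540123 and measured 91.3 kb in GNP and 88.8 kb in glia. A single GNP nucleosome separated it from another of the 10, at 21416974 to 21448656, which measured 31.7 kb in GNP. The partner of that second stretch measured 20.4 kb, and 4 glia centres lay inside the GNP stretch. With stretches joined across single calls, this place on 2L measured 127 kb in GNP with 4 calls inside, and 116 kb in glia with 5 calls inside. The second longest member was on X from 21684297 to 21760088, with 75.8 kb in GNP and 75.7 kb in glia. The third and the fourth lay far from the centromere. They were the 2L stretch of 74.5 kb named above, 7.32 Mb from the centromere-side end of the calls, and a stretch on 3L from 19701671 to 19769142. The latter measured 67.5 kb in both maps and held no glia centre. On 2R the longest ran from 15617082 to 15653926 and measured 36.8 kb in GNP and 36.7 kb in glia. Of the 10, the lengths in the maps differed by more than 10% only for the 31.7 kb stretch on 2L and for a stretch on X from 19801618 to 19829454, with 27.8 kb in GNP and 16.9 kb in glia.

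Members over 2 kb did not fall off smoothly with length. Counted in bins of 100 bp and averaged over 3 bins, their number had 3 maxima that reached at least 2 times the median of the surrounding bins. The first was at 5.1 kb with an average of 23.7 members per bin, 2.54 times the local median. The second was at 7.5 kb with 21.3 members per bin (2.67 times), and the third at 9.0 kb with 15.7 (3.62 times). Between the first and the second the average fell to 4.33 members at 5.8 kb. It fell to 3.33 at 8.6 kb and to 0.667 at 9.7 kb. Lengths thus gathered around a few values, and lengths just above 9 kb were followed by very few longer ones. Which value was the most frequent depended on the bins. It was 5150 bp in bins of 100 bp, 7475 bp in bins of 50 bp and 2100 bp in bins of 200 bp, the last of which lies on the slope of the short stretches.

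The glia partners gathered at similar lengths. They were chosen by overlap with the members and are largely the same places, so this is no independent sighting of these lengths. Their averages were 21.7 per bin at 5.1 kb, 21.7 at 7.5 kb and 14.7 at 9.0 kb. At 7.5 and 9.0 kb these were 3.25 and 3.38 times the local median. At 5.1 kb the glia maximum did not reach 2 times the local median. The maxima in GNP were also read by location. With the 2 Mb nearest the centromere of each arm and all of arm 4 left out, the 9.0 kb maximum was 5.11 times its local median, the one at 7.4 kb 3.31 times and the one at 5.1 kb 2.85 times, and a further one appeared at 4.7 kb (2.05 times). In the sequence left out, the 7.5 kb maximum was 3.25 times its local median with an average of 4.33 members per bin. Another lay at 6.2 kb (2.00 times, 3.33 members). That one rests on a single bin, with 8 members at 6300 bp, 1 at 6200 bp and 0 at 6400 bp.

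**Figure D3:**
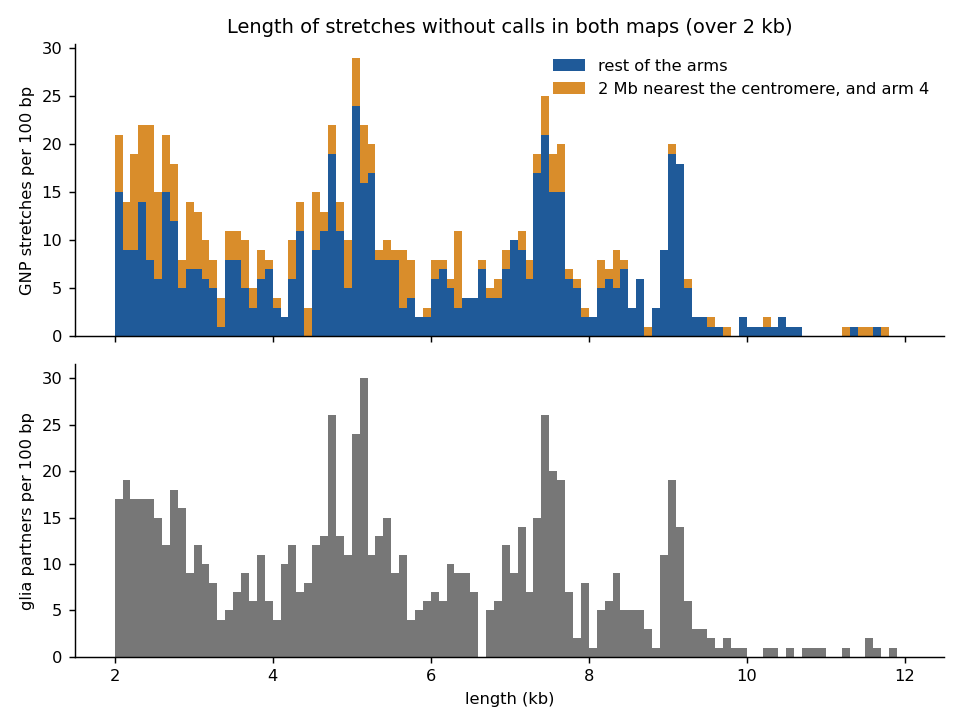
Number of members per 100 bp of length, from 2 to 12 kb. The upper panel gives GNP lengths, split by location, and the lower panel gives the glia partners. Both panels show maxima near 5.1, 7.5 and 9.0 kb, and the 9.0 kb one is almost free of members near the centromere.

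A length class of 500 bp was drawn around each of these 3 maxima, and together the classes held 236 members and 1.65 Mb. The class from 4.9 to 5.4 kb had 90 members with a median of 5111 bp in GNP, and its partners had 5113 bp. Its quartiles were 5043 and 5233 bp. Examples are 8745962 to 8751105 on 3R, with 5144 bp in GNP and 5128 bp in glia, and 21742408 to 21747565 on 3L, with 5158 and 5023 bp. The class from 7.3 to 7.8 kb also had 90 members, with medians of 7502 and 7473 bp. Its quartiles were 7420 and 7612 bp. A stretch from 20303099 to 20310644 on 2L measured 7546 bp, and 7526 bp in the glia map. The class from 8.8 to 9.3 kb had 56 members, with medians of 9083 and 9066 bp and quartiles of 9008 and 9155 bp. A stretch from 8327836 to 8336884 on 3R measured 9049 and 9007 bp, and one from 10354836 to 10363892 on 2R measured 9057 and 9171 bp.

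The glia partner fell into the same class for 70 of 90, 74 of 90 and 47 of 56 members. Its length was within 100 bp of the member's for 48.9%, 53.3% and 58.9% of the classes. All members over 2 kb had 46.5%, and members of any length 51.7%. No glia centre lay inside 50 of 90, 53 of 90 and 29 of 56. The classes were spread over the arms. The 7.5 kb class had 18 members on 2L, 14 on 2R, 25 on 3L, 11 on 3R and 22 on X, and the 9.0 kb class had 12, 6, 17, 14 and 7. Arm 4 held 1 member of the 5.1 kb class and none of the others. The classes differed in how many members lay near a centromere. Of all members over 2 kb, 27.7% (24.8% to 30.8%) lay within 2 Mb of the centromere-side end of the calls or on arm 4. In the 5.1 kb class this share was 22.2% (14.9% to 31.8%) and in the 7.5 kb class 17.8% (11.2% to 26.9%). In the 9.0 kb class it was 3.57% (0.985% to 12.1%), or 2 of 56, and this interval does not overlap that of all members over 2 kb.

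Members were dense at the centromere-side ends of 4 of the 5 long arms. In the 1 Mb nearest the centromere there were 133 members on 2L, 151 on 2R, 199 on 3L and 87 on X. They took up 23.4%, 24.5%, 35.3% and 30.2% of that sequence. On 3R the same window held 24 members, where the rest of the arm had 9.37 per Mb. On each of the 5 long arms this was the full window with the most members. Over the 5 arms the density was 119 members per Mb in these windows and 12.8 per Mb in the rest, a ratio of 9.27 (8.43 to 10.2). The ratio was 5.31 for members over 2 kb. The excess reached to different depths on the arms. On 2R the second and the third Mb still held 54 and 48 members, and on 3L the second held 98 and the third 4. Beyond 3 Mb, the 102 full windows of 1 Mb had a median of 10 members, from 1 to 23. The shorter last windows of the arms are not in this count. That of X, 0.421 Mb long, held 15 members, or 35.6 per Mb, and 18.6% of its sequence. Arm 4 had 83 members over its 1.32 Mb, or 62.7 per Mb. The proximal 1 Mb, its only full window, held 59. The remaining 0.324 Mb held 24, or 74.1 per Mb, so members were not denser at its centromere-side end.

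**Figure D4:**
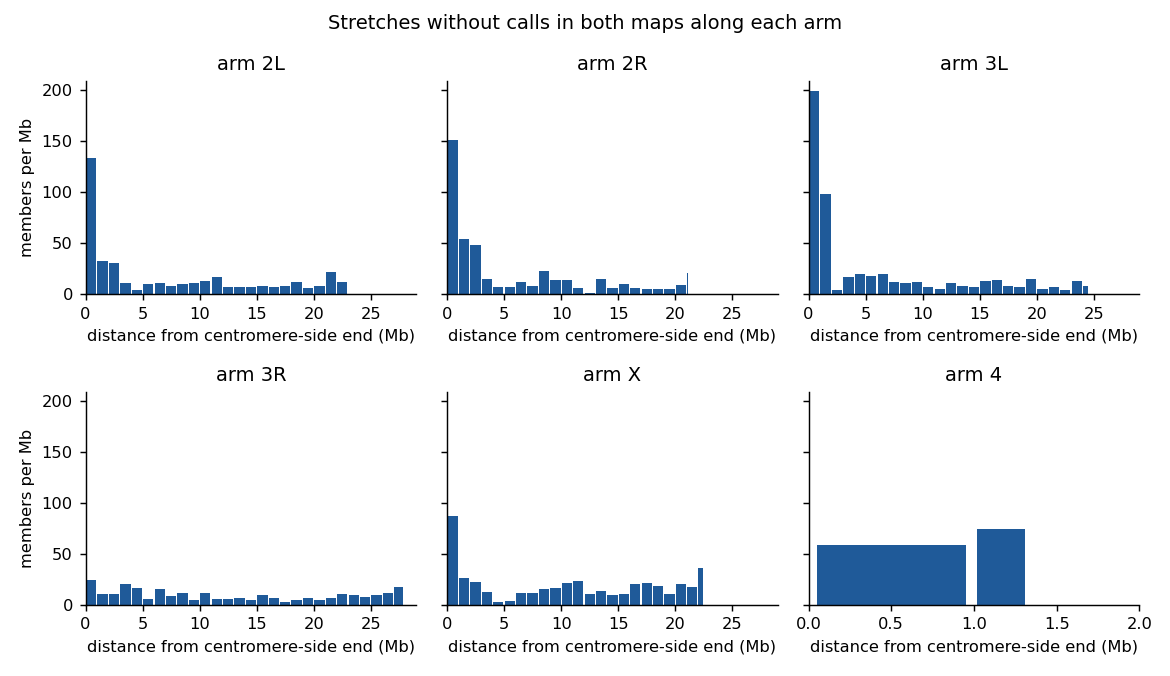
Members per Mb along each arm, in windows of 1 Mb from the centromere-side end of the calls (the last window of an arm is shorter). The first window holds 133, 151, 199 and 87 members on 2L, 2R, 3L and X, and 24 on 3R. Arm 4 has a horizontal scale of its own.

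Members near the centromeres were shorter. The median was 997 bp (916 to 1066) for the 898 members in the proximal 2 Mb and on arm 4, and 1983 bp (1766 to 2272) for the 1240 others. Over 2 kb were 26.3% of the first and 49.8% of the second. The 1240 others held 4.54 of the 6.49 Mb. By the median over the whole arm, arm 4 had the shortest members, with 883 bp, and 3R the longest, with 2162 bp. On 3R only 24 members lay in the proximal 1 Mb. Outside that window the median was 2176 bp on 3R and 2239 bp on 2L.

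Many members came in groups. Of 2132 pairs of neighbouring members on an arm, 434 or 20.4% were separated by a single GNP nucleosome, 140 by 2 and 65 by 3. The median pair had 35 nucleosomes between. Of the 434 single nucleosomes, 269 or 62.0% lay in the proximal 2 Mb or on arm 4, where 42.0% of the members were. The longest such chain had 7 stretches with single calls between them.

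Single calls between long stretches of the same map, shared or not, numbered 533 in GNP and 537 in glia. A glia centre lay within 20 bp of 269 of the 533, or 50.5% (46.2% to 54.7%). No glia centre lay within 1 nucleosome width of 117 of them, or 22.0% (18.6% to 25.7%). The closest glia centre of the remaining ones lay in between. Of the 537 single glia calls, 44.3% (40.2% to 48.5%) had a GNP centre within 20 bp, and 29.8% (26.1% to 33.8%) had none within 1 nucleosome width. Among GNP nucleosomes more than 2 kb from any member, 40.2% had a glia centre within 20 bp.

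The order of nucleosomes was then read in the 2 kb outward from each edge. Further emptiness was common in these flanks. The next nucleosome outward was more than 500 bp away at 22.4% of the 4276 member edges in GNP and at 19.4% of the 4086 partner edges in glia. The same was true at 10.6% and 11.9% of the edges of long stretches that were not shared. It was true in 0.418% and 0.419% of the steps from all other nucleosomes. The long steps at GNP members number 957. They include both sides of the 434 single nucleosomes between members described above, so this is largely the same grouping seen again. A flank of 2 kb with no further long stretch was present at 59.8% of GNP and 62.0% of glia edges. Over all flanks the 2 kb held a mean of 6.41 calls at the members in GNP and 8.62 from all other nucleosomes, and 6.48 and 8.41 in glia. In the unbroken flanks, which were chosen for having no further long stretch, the means were 8.59 ± 0.958 (SD over 2555 flanks) in GNP and 8.73 ± 0.875 (SD over 1004954 flanks) from all other nucleosomes. In glia they were 8.41 ± 0.876 (2533 flanks) and 8.51 ± 0.820 (985280 flanks).

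Where the next nucleosome lay within 500 bp, its distance from the edge nucleosome had a median of 206 bp (203 to 209) at the GNP edges and of 210 bp (207 to 213) at the glia edges. All other nucleosomes had medians of 200 and 209 bp. Distances from 160 to 200 bp made up 37.1% (35.5% to 38.7%) at the members in GNP and 40.8% from all other nucleosomes. In glia the shares were 33.1% (31.5% to 34.8%) and 35.2%. The upper end of this range equals the GNP median of all other nucleosomes and lies below the glia one. A lower share can thus reflect wider steps and does not measure regularity. The shares were then read by location. On the arms beyond the proximal 2 Mb, the share at the members was 41.1% (39.0% to 43.2%) in GNP, and 41.1% for all other nucleosomes there. In glia these shares were 36.1% (34.0% to 38.2%) and 35.4%. In the proximal 2 Mb and on arm 4, the share was 30.0% (27.4% to 32.6%) at the members in GNP and 37.7% (37.4% to 38.1%) for all other nucleosomes of the same sequence. In glia it was 28.1% (25.6% to 30.7%) and 33.7% (33.4% to 34.0%). The share was thus lower beside members near the centromeres in both maps. Elsewhere the counting intervals of this share at the members included the value of all other nucleosomes. The median first distance near the centromeres was 221 bp at the members in both maps, and 205 bp (GNP) and 212 bp (glia) for all others. Elsewhere it was 199 bp (196 to 202) at the members in GNP, where all others had 200 bp. In glia it was 205 bp (202 to 208), and the value of all others, 209 bp, lay above that interval.

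Repeats could be followed outward from the edges. Nucleosome centres were counted in windows of 11 bp, at the distances where all other nucleosomes have their first peak and trough, 173 and 290 bp for GNP, 177 and 295 bp for glia. At the member edges the first peak exceeded the trough 5.47-fold (4.24 to 7.06) in GNP and 3.69-fold (2.92 to 4.66) in glia. All other nucleosomes gave 4.48-fold and 3.12-fold, inside both intervals. The second peak exceeded its trough 1.76-fold (1.41 to 2.19) in GNP, where all others gave 1.73-fold, and 1.35-fold (1.08 to 1.69) in glia, where all others gave 1.24-fold. At the third peak the intervals reached below 1 in both maps, with 1.21-fold (0.963 to 1.53) and 1.11-fold (0.881 to 1.40). When the peak and the trough were read from the members' own profile, the first contrast was 6.06-fold (4.65 to 7.90) in GNP and 4.05-fold (3.18 to 5.16) in glia. Both intervals lie above the values of all other nucleosomes. That reading was the planned one, and it picks the highest and the lowest window of a small count. The reading at fixed distances was added after seeing the data. Whether the contrast beside the stretches exceeded that of other nucleosomes thus differed between these readings. In unbroken flanks the first contrast at the fixed distances was 5.98-fold (4.46 to 8.02) in GNP, where all others gave 4.49-fold. In unbroken glia flanks it was 4.24-fold (3.22 to 5.59), and the value of all others, 3.11-fold, lay below that interval.

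**Figure D5:**
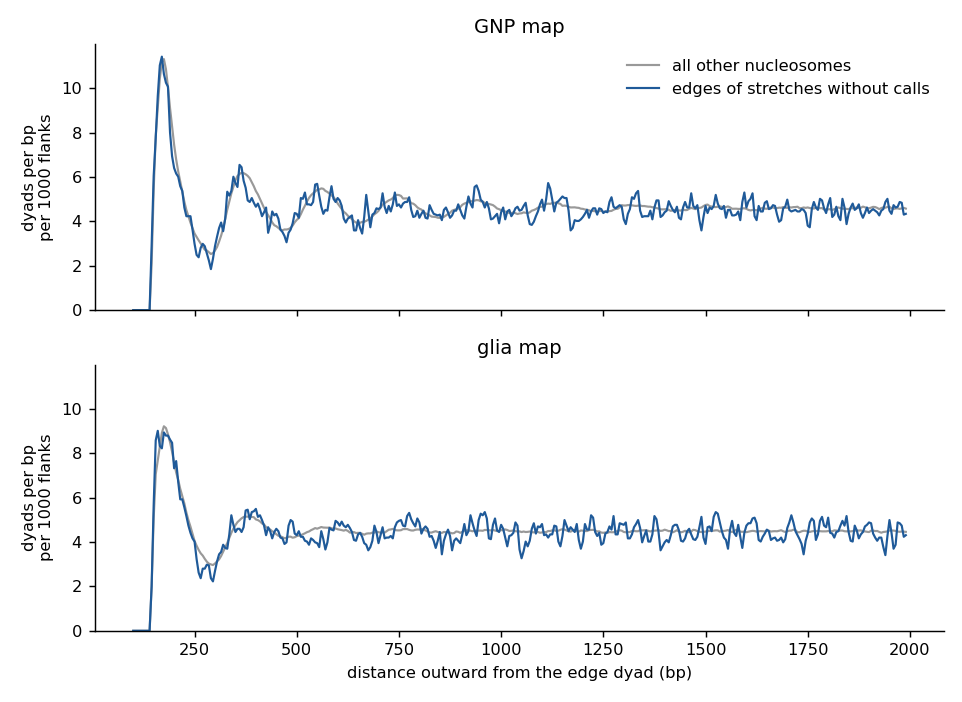
Nucleosome centres per bp and 1000 flanks, in windows of 11 bp, by distance outward from the edge nucleosome, for flanks with no other long stretch. Blue lines are edges of members (GNP) or of their partners (glia), grey lines all other nucleosomes of the same map. In both maps the first peaks and troughs of the lines lie at similar distances.

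The spread of positions grew outward, and by the third nucleosome it was wider beside the stretches than from all other nucleosomes in both maps. In unbroken GNP flanks the first nucleosome had an interquartile range of 82.5 bp around its median of 201 bp, the third 155.5 bp around 652 bp and the fifth 207 bp around 1097 bp. From all other nucleosomes the ranges were 75, 144 and 184 bp. In glia the ranges beside the stretches were 78, 148 and 196 bp, and those from all others 80, 138 and 175 bp. Beside long stretches that were not shared, the ranges were 74, 155.5 and 208 bp in GNP (775 unbroken flanks). In glia they were 89, 152 and 182 bp (417 unbroken flanks). The wider spread farther out was thus not particular to the members. These ranges have no interval and were not read by location.

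Ordinary gaps, of 150 bp or more between neighbours up to 500 bp apart, were set beside the members. Their edges were followed by a first distance from 160 to 200 bp in 38.5% (38.2% to 38.7%) of cases in GNP and in 34.1% (33.8% to 34.3%) in glia. Both values lie inside the intervals of the members. A long step followed at 0.595% and 0.551% of those edges. At the same distances as above, the first peak of ordinary gaps exceeded its trough 3.67-fold (3.54 to 3.80) in GNP and 2.83-fold (2.74 to 2.93) in glia. In GNP this interval lies below that of the members, and in glia the intervals overlap only from 2.92 to 2.93. At the edges of the 516 long GNP stretches that were no members, the first contrast was 3.93-fold (2.59 to 5.95), which overlaps the members.

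Shorter and longer members differed in their flanks, but length and location were not separated here. Members near the centromeres were shorter, as described above. A long step came next at 33.2% of GNP member edges in the proximal 2 Mb and on arm 4, and at 14.5% elsewhere. In glia this share was also higher near the centromeres. At members up to 2 kb a long step came next at 24.7% of GNP edges, and the median first distance was 211 bp (207 to 216). Over 2 kb these values were 18.9% and 199 bp (195 to 203). In glia the steps differed less, with 19.7% up to 2 kb and 18.8% over 2 kb, and the median first distances were 214 bp (209 to 218) and 206 bp (203 to 210). Flanks of the length classes had fewer long steps than those of all members over 2 kb. Long steps came next at 9.44% of edges in the 5.1 kb class, at 2.78% in the 7.5 kb class and at 3.57% in the 9.0 kb class. In glia the values were 12.8%, 3.45% and 2.94%. A smaller share of each class than of all members over 2 kb lay near a centromere. Whether the fewer long steps go with length or with location was not tested.

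Agreement between the maps was measured by the distance from each GNP nucleosome to the closest glia nucleosome. It was 20 bp or less for 42.8% (42.2% to 43.3%) of the 26678 nucleosomes within 2 kb of a member and for 40.2% of the 495441 others. The 26678 include 3842 edge nucleosomes, on which the rule bears. The edge nucleosomes themselves reached 47.7% (46.1% to 49.2%), and 3.46% of them (2.93% to 4.09%) had exactly the glia position, against 1.70% (1.67% to 1.74%) of the others. In unbroken flanks the share within 20 bp was 45.6% (43.7% to 47.6%) at the edge and 41.6% (39.7% to 43.6%) at the next nucleosome, and it stayed between 40.2% and 43.2% up to the eighth. The edge nucleosomes also had more partners far away, with 8.75% more than 1 nucleosome width from any glia centre and 1.84% of the others. The rule asks for overlapping stretches and so bears on where the edges can lie, but not on the nucleosomes farther out.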

How the data were processed

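Single-end reads of 49 bases were placed by the authors on the dm3 build with Bowtie (0.12.7 in the submitters' processing notes), with up to 2 mismatches. From uniquely mapped reads they predicted nucleosomes with GeneTrack, whose settings are not given in the sources used here. The 2 deposited lists hold 3 columns, arm, start and end, and no score, count or other measurement, so depth is unknown. Every interval has an end minus start of 146 bp, and the closest starts are 147 bp apart. Positions are printed as listed and may be off by 1 bp, since the lists do not say whether they count from 0 or 1. Both ends were counted as covered.

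Stretches, overlaps, lengths and flanks were computed in Python 3.11.15 with numpy 2.4.6 and pandas 2.3.3, and checked on simulated maps with planted stretches. The dyad, or centre, is the midpoint of a nucleosome. Shares have Wilson intervals, medians order-statistic intervals, and ratios of counts log-normal intervals from Poisson counts, all at the 95% level. Neighbouring nucleosomes are not independent, so these may be too narrow. Preferred lengths were sought from 2 to 15 kb in bins of 100 bp averaged over 3, with at least 3 members and at least 2 times the median of the bins within 1 kb. Length classes reach from 200 bp below to 300 bp above the start of the top bin. The proximal end is the high coordinate of 2L, 3L and X and the low one of 2R, 3R and 4. Regions named are the 10 longest, those at the limits of the rule, examples closest to each preferred length and the longest with both edges shared within 20 bp. The last of these, and the longest non-members, were added after their values were seen, because no member had identical edges in both maps. The members and all choices were made with earlier results of these data known. The 10 ChIP-seq samples were not analysed here.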

Additional observations from a re-analysis of the deposited data

How the results depend on the processing

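The 12 results were recomputed under alternatives, 69 values in all. Of these, 40 stayed near the first value and 29 moved. A reversal was defined only for the proximal density ratio and the contrasts of peak and trough, as a crossing of 1. There were 0 reversals. Contrasts read from a profile's own peak and trough lie above 1 almost by construction, and the other results have no direction to reverse. Numbers and sums counted as near within 1.5 times, the preferred length within 100 bp and other values inside their 95% interval. Joining stretches across 1 call, leaving out the proximal 2 Mb for the preferred length, and reading contrasts at the peak of all other nucleosomes were chosen after seeing the data.

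The limits of the rule moved the numbers by construction. With starts more than 750 bp apart, 92.1% of GNP stretches were shared and the median length was 2233 bp. With more than 1000 bp there were 1367 members, 92.6% shared, with a median of 2952 bp. Asking for 80% of the GNP stretch gave 70.4% shared, and 50% of both stretches gave 75.9%. Counting from start to start gave a median of 1500 bp. Taking glia stretches as the base gave 87.2% shared. Joining stretches across 1 call gave 78.7% shared, a median of 1999.5 bp and a most frequent length of 7450 bp. The most frequent length was 7475 bp in bins of 50 bp and 2100 bp in bins of 200 bp. Members over 2 kb had a median edge offset of 64 bp. The proximal density ratio was 7.16 with 2 Mb, 7.87 with 500 kb, 5.31 for members over 2 kb and 10.4 without arm X.

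In flanks with no other long stretch, the first distance had a median of 201 bp (GNP) or 206 bp (glia), and 42.0% of GNP nucleosomes had a glia centre within 20 bp. For members over 2 kb the first distances were 199 and 206 bp, and the glia contrast of peak and trough was 5.89. Outside the 1 Mb nearest the centromere and off arm 4 the first distances were 201 and 206 bp, the GNP contrast was 8.08 and the share within 20 bp was 41.5%. The cause of these movements was not tested. The planned description of base content, mobile elements and repeated 49-base windows was not run, since no dm3 genome was used here. No paired analysis was possible because there is 1 library per cell type, and for the same reason no replicate could be left out. The unknown depth limits every statement on empty sequence, since fewer reads leave more of it without calls.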
